A study of Mus musculus with 4 samples.

Results

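Voltage-gated potassium (Kv) channel alpha subunits are the pore-forming proteins that let potassium out of a depolarised neuron. The set comprised 39 genes of 23466 in the deposited table, namely every gene whose symbol is Kcn followed by one of the letters a, b, c, d, g, h, q, s or v and a number. Where a gene had several RefSeq records, the record with the highest mean over the 4 libraries stood for it, and the 39 genes had 57 records in all. The letters stand for subfamilies: Kcna (8 genes, Shaker type), Kcnb (2, Shab), Kcnc (4, Shaw), Kcnd (3, Shal), Kcng (4), Kcnh (8, EAG), Kcnq (5), Kcns (3) and Kcnv (2). Kcnf1, a further modulatory subunit of the Shab group, is outside the rule and is given among the related channels.

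The libraries were made from ribosome-depleted RNA of frozen hippocampus at postnatal day 30, all on the strain C57BL/6N. Mutants 38 and 39 are labelled ko in their titles and as a conditional het, Atp6ap2Camk2aCre/0, in the condition field, and wild-types 11 and 73 are labelled wt. The Camk2a promoter drives Cre in forebrain excitatory neurons, so the whole tissue also holds cells without Cre (glia, vessels, most inhibitory neurons). Atp6ap2, whose protein works with the vacuolar proton pump, had 2551 and 2522 scaled read equivalents (defined below) in mutants 38 and 39, against 2312 and 2637 in wild-types 11 and 73. With a fold change of 0.04 ± 0.10 on the log2 scale (SE, n = 2 per group; limma unadjusted p = 0.722), its level does not tell the groups apart, and mutant and wild-type stand below for the libraries labelled so. Nothing in the labels ties a sample to an animal, and p-values reflect only the spread among the 4 samples, which may be technical.

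Alpha subunits assemble as tetramers around a central pore, and the subfamily sets how fast the channel opens and at which voltage. Shaker-type channels sit mostly in axons, Shab-type channels in the cell body and proximal dendrites, Shaw-type channels repolarise fast-spiking neurons, and Shal-type channels carry the A-type current of pyramidal cell dendrites. Kcnq subunits carry the M-current that holds neurons back from repetitive firing. Kcng, Kcns and Kcnv subunits are called silent, because they make no channel alone and join Kcnb subunits to change their gating.

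The stretch that codes for the potassium selectivity filter was searched for in 38 of the 39 members, with Kcng2 left aside, and 38 of 38 transcripts held its signature exactly once. The windows below show that stretch for a few members: Kcng3 and Kcna3, for which both mutants were below both wild-types, Kcna10, which shares stretches of a read's length with Kcna3, and the abundant Kcna2. Each window is 42 bases, the length of 1 read in these data, 5′ to 3′, with the 15 bases of the filter signature in capitals.
Kcng3: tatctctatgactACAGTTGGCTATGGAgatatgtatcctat
Kcna3: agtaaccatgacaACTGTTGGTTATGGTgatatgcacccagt
Kcna10: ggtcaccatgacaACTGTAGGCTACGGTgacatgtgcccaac
Kcna2: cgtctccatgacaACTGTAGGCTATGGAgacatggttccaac
They were read from GENCODE M21 transcripts matched by RefSeq accession, and lie in the coding sequence on GRCm38, with Kcng3 at chr17:83587900-83587941 (minus strand, exon 2 of 2), Kcna3 at chr3:107037598-107037639 (plus strand, exon 1 of 1), Kcna10 at chr3:107195302-107195343 (plus strand, exon 2 of 2) and Kcna2 at chr3:107105211-107105252 (plus strand, exon 3 of 3). Between any 2 of these windows 28 to 35 of the 42 bases were identical, most between Kcna10 and Kcna2. Of all 42-base windows, 9 of the 39 members shared at least 1 with another member. The largest share was 3.37% of the windows of Kcna5, all with Kcna6. Kcna3 and Kcna10 shared 0.752% of the windows of Kcna3. Reads from shared windows cannot be assigned to 1 gene, and the values of Kcna5 are uncertain by an amount not measured here. A share of windows is not a share of reads. Per kb of transcript, Kcna6 had a mean of 243 scaled read equivalents, against 26.9 for Kcna5.

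The deposited values are aligned bases per transcript record, scaled per library, and dividing by the 42 bases of a read gives the scaled read equivalents used here. Depth over genes was 10023033 read equivalents before scaling in wild-type 73 and between 17543464 and 18339838 in the other 3 libraries. Of the 39 members, 37 had at least 1 scaled read equivalent in 2 or more libraries and were tested, together with all 18127 genes that did so. Kcna7 and Kcna10, with at most 0.844 and 1.69 scaled read equivalents in any library, were not tested. Fold changes are mutant over wild-type on log2(scaled read equivalents + 1), from limma across all genes with Benjamini-Hochberg adjustment, which understates the change of members with few reads. Markers of pyramidal, granule and inhibitory neurons had signal in each library, with summed levels of 10781 to 15759.9 for CA1 and 8814 to 11109.8 for dentate granule markers.

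The libraries differed in tissue around the hippocampus. The 17 choroid plexus markers summed to 125810.0 and 7837 scaled read equivalents in mutants 38 and 39, against 75496 and 7542 in wild-types 11 and 73, so that each group holds 1 library high in them. The 11 thalamus markers summed to 7192 and 3383 in mutants 38 and 39, against 3358 and 3179.6 in wild-types 11 and 73, with mutant 38 highest. Of the 11, 3 were higher in both mutants (of all genes 16.8%), among them Slc17a6 with 954 and 783 in mutants 38 and 39, against 380.4 and 408 in wild-types 11 and 73. The 12 markers of myelinating oligodendrocytes summed to 112948 and 99918 in the mutants, against 91869.6 and 66182, and 11 of 12 were higher in both mutants (of all genes 16.8%). The 9 dentate granule markers summed to 10113 and 8814 in the mutants, against 10369 and 11109.8, and 9 of 9 had a log2 fold change below 0, as did 8822 of 18127 genes. Of these 4 lists, Gbx2 of the thalamus list was the marker listed at 0 in a library, wild-type 73. The 9 CA1 markers had a median log2 fold change of -0.17, with 6 of 9 below 0. Fibcd1 of that list had 1392 and 1600.2 in mutants 38 and 39, against 2243 and 2299 in wild-types 11 and 73. It was the 1 CA1 marker with both mutants lower (of all genes 16.5%). Man1a and Ndst4 were the 2 with both mutants higher (of all genes 16.8%). The medians of other lists were 0.11 for CA3 and CA2, 0.19 for striatum, 0.07 for oligodendrocyte precursors and 0.47 for red blood cells. The part of these markers in the results below was not tested. In RNA of whole tissue, fewer cells of a type and less RNA per cell cannot be told apart.

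Per kilobase of transcript, the most abundant Kv alpha subunit was Kcna1, an axonal Shaker-type channel whose human counterpart is mutated in episodic ataxia, with a mean of 1493 (1412 to 1645) scaled read equivalents per kb (lowest to highest library). Kcnc2, a Shaw-type subunit of inhibitory neurons, had 829.9 (765 to 959). The libraries of these genes did not overlap, and those of Kcnc2 lay above those of Kcnd2. Kcnd2, the A-type subunit of pyramidal dendrites, had 538 (503 to 588) and overlapped with the axonal Kcna2 at 487 (443 to 562). Below these, the members ran from Kcnh3 at 358 (293 to 415) to Kcna5 at 26.9 (21.8 to 31.2), with each of those named in the text overlapping the next of them in order, and Kcna5 did not overlap with those below it. Kcnd1, Kcnh4, Kcnh6, Kcnq1 and Kcnh8 had means between 4.04 and 12.2 per kb, and Kcnv2, known from cone photoreceptors, had 0.731 (0.491 to 0.884). Kcna10 and Kcna7, a muscle channel, had 0.448 and 0.169 per kb on average.

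**Figure D1:**
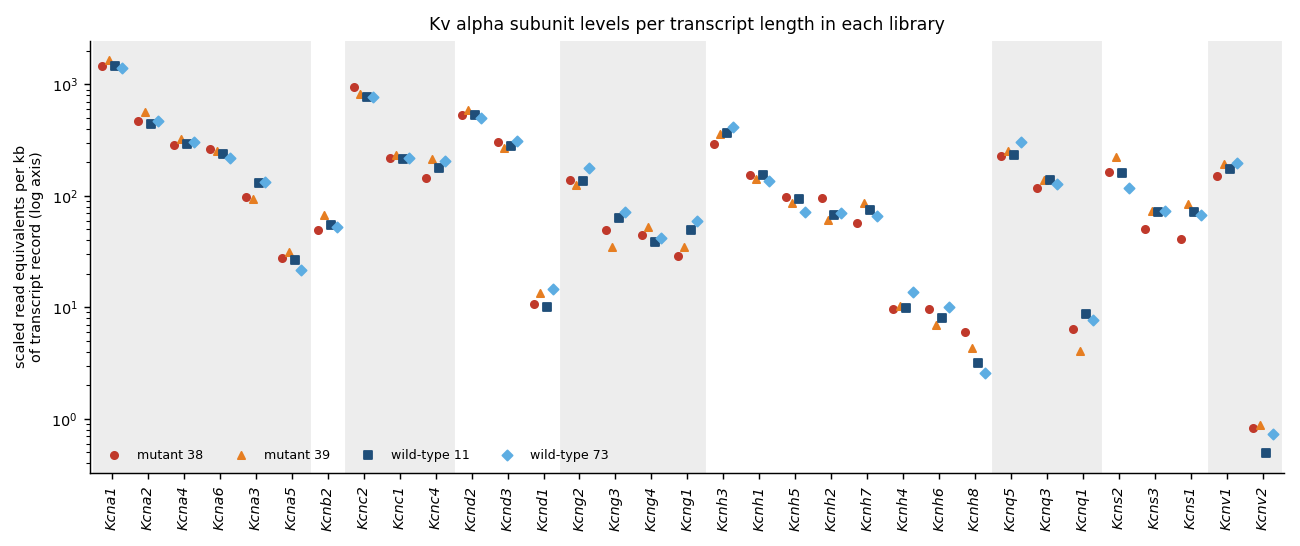
Scaled read equivalents per kb of transcript record (log axis) for 33 of the tested Kv alpha subunits, ordered by subfamily letter (grey and white bands) and by level, with 1 point per library. Kcna1 and Kcnc2 have means of 1493 and 829.9, and the mutants' and wild-types' points lie close together for most members.

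The members with 2 records (Kcnc1, Kcnd3, Kcnh1, Kcnh8, Kcnq5, Kcns2 and Kcns3) had like log2 fold changes on both, such as 0.48 and 0.53 for Kcns2 and -0.25 and -0.22 for Kcns3. Kcnh8 had 0.80 on 1 record and 0.52 on the other, and Kcnc1 had 0.05 and -0.03. Records of a gene share reads, so they are not separate measurements.

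Between the libraries labelled mutant and those labelled wild-type, 0 of the 37 members passed at an adjusted p below 0.05, where 1 gene of 18127 passed (0.00552%). At an unadjusted p below 0.05, 4 members had a difference (10.8% of 37), against 3.94% of all genes. Of these, 1 was higher (2.7% of the members, 2.18% of all genes) and 3 were lower (8.11% of the members, 1.75% of all genes). The members' median log2 fold change was -0.01, against 0.01 over all genes, and 26 of 37 members had a log2 fold change of less than 0.25 in size. Both mutants lay above both wild-types for 9 members (24.3%, against 16.8% of all genes) and below for 6 (16.2%, against 16.5%). The 4 members were Kcng1, Kcng3 and Kcna3, lower in the mutants, and Kcns2, higher. With all 4 libraries, Kcng1, Kcng3 and Kcna3 were below 0.05 in 11 of 11 alternative fits and Kcns2 in 6 of 11. These fits reuse the same values, so they are not separate evidence. With 2 libraries against 2, a two-sided exact permutation test of 1 gene cannot give a p below 0.333.

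**Figure D2:**
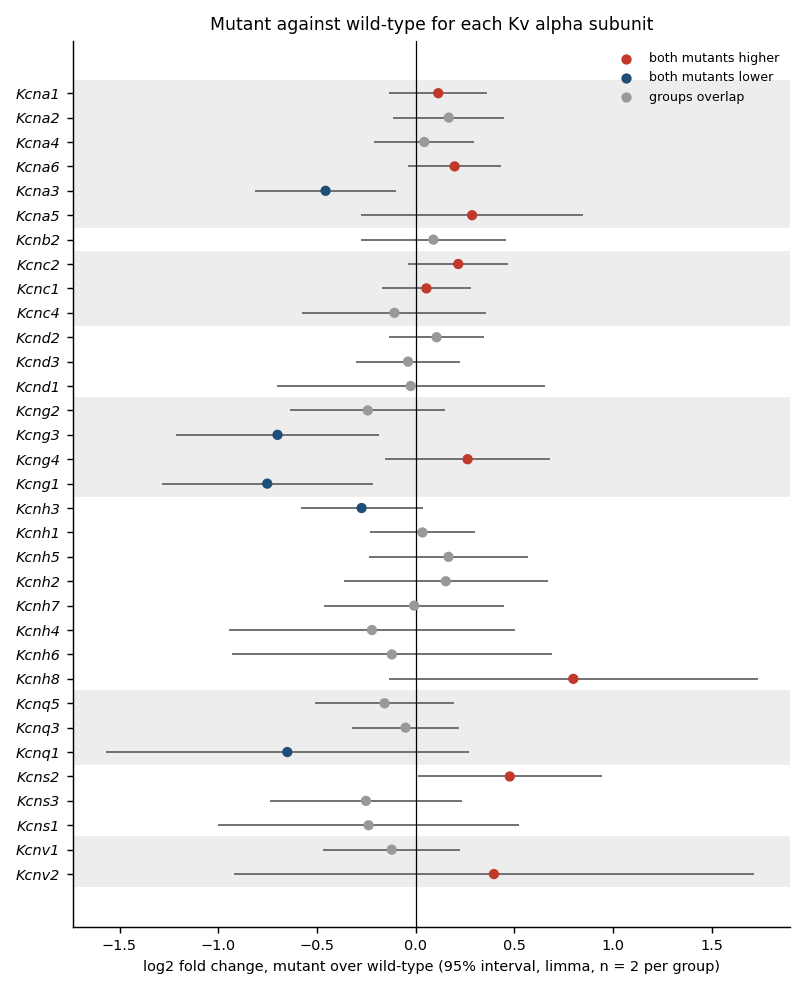
Log2 fold change, mutant over wild-type, of 33 of the tested Kv alpha subunits with its 95% interval from limma (n = 2 per group), grouped by subfamily in grey and white bands. Intervals of Kcna3, Kcng1, Kcng3 and Kcns2 leave out 0, and those of the other 29 shown include it.

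Of the 9 silent subunits, 3 were among these 4 members (of all genes 3.94%), Kcng1 and Kcng3 lower and Kcns2 higher. The median log2 fold change of the 9 was -0.24, against -0.00 for the 28 tested members of the other subfamilies. Between mutant 38 and wild-type 11 these medians were -0.21 and -0.01, and between mutant 39 and wild-type 73 they were -0.01 and 0.08. Kcng1 had 67.1 and 80.9 scaled read equivalents in mutants 38 and 39, against 114 and 137 in wild-types 11 and 73. Both mutants were lower than both wild-types, with a log2 fold change of -0.75 ± 0.23 (SE, n = 2 per group; limma unadjusted p = 0.0126, adjusted p = 0.989) and a 95% interval of -1.29 to -0.22. That was 0.591 of the wild-type mean, from 79.5 and 89.6 read equivalents before scaling in mutants 38 and 39 and 137 and 87.4 in wild-types 11 and 73.

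Kcng3 had 166 and 116 scaled read equivalents in mutants 38 and 39, against 213 and 240.2 in wild-types 11 and 73. Both mutants were again below both wild-types, mutant 39 the lower of the pair, with a log2 fold change of -0.70 ± 0.22 (SE, n = 2 per group; limma unadjusted p = 0.0147, adjusted p = 0.989) and a 95% interval of -1.21 to -0.19. The group means were 141 ± 35.7 in mutants and 226 ± 19.5 in wild-types (SD, n = 2 each). Kcng2 had 389 and 352 scaled read equivalents in mutants 38 and 39, against 381 and 503 in wild-types 11 and 73, with mutant 38 between the wild-types. Kcng4 had 169 and 199 scaled read equivalents in mutants 38 and 39, against 147 and 158 in wild-types 11 and 73, with both mutants higher. Their log2 fold changes were -0.24 ± 0.17 and 0.26 ± 0.18 (SE, n = 2 per group), and the median of the 4 Kcng members was -0.47.

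Kcns2 went the other way. It had 901 and 1221 scaled read equivalents in mutants 38 and 39, against 883 and 643 in wild-types 11 and 73. Both mutants were higher than both wild-types, but mutant 38 and wild-type 11 lay close together, with mutant 39 highest and wild-type 73 lowest. It had a log2 fold change of 0.48 ± 0.20 (SE, n = 2 per group; limma unadjusted p = 0.046, adjusted p = 0.989) and a 95% interval of 0.01 to 0.94. The log2 difference was 0.03 between mutant 38 and wild-type 11 and 0.92 between mutant 39 and wild-type 73. The related Kcns1 had 111 and 229 scaled read equivalents in mutants 38 and 39, against 194 and 182 in wild-types 11 and 73, where mutant 38 was lowest and mutant 39 highest. Kcns3 had 149 in mutant 38 and between 211 and 215 in the other 3 libraries. Kcnv1, a silent subunit of cortical and hippocampal neurons, had 664 and 847 scaled read equivalents in mutants 38 and 39, against 766 and 868 in wild-types 11 and 73, with the groups overlapping (log2 fold change -0.12 ± 0.15 SE). Kcnv2 had between 2.51 and 4.51 in any library.

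Kcnb2, a Shab-type subunit that silent subunits join, had 732 and 992 scaled read equivalents in mutants 38 and 39, against 814 and 787 in wild-types 11 and 73. Mutant 38 was the lowest and mutant 39 the highest library, with a log2 fold change of 0.09 ± 0.16 (SE, n = 2 per group; limma unadjusted p = 0.58, adjusted p = 0.989) and a 95% interval of -0.28 to 0.46.

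Among the Shaker-type members, Kcna3, also known as a channel of T lymphocytes and microglia, was the 1 with an unadjusted p below 0.05. It had 188 and 179.9 scaled read equivalents in mutants 38 and 39, against 249.7 and 255 in wild-types 11 and 73. The libraries of each group lay close together and the groups were well apart, with a log2 fold change of -0.46 ± 0.15 (SE, n = 2 per group; limma unadjusted p = 0.019, adjusted p = 0.989). The 95% interval was -0.81 to -0.10, and the group means were 184 ± 5.63 in mutants and 253 ± 4.12 in wild-types (SD, n = 2 each). The other 5 tested Kcna members had log2 fold changes above 0. Kcna6, an axonal subunit, had 1547 and 1483 scaled read equivalents in mutants 38 and 39, against 1375 and 1269 in wild-types 11 and 73 (log2 fold change 0.20 ± 0.10 SE, unadjusted p = 0.089, limma), with both mutants higher.

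Kcna1 had 5892 and 6633 scaled read equivalents in mutants 38 and 39, against 5853 and 5693 in wild-types 11 and 73. Both mutants were higher, mutant 38 by little over wild-type 11, with a log2 fold change of 0.11 ± 0.10 (SE, n = 2 per group; limma unadjusted p = 0.309, adjusted p = 0.989). Kcna2, its usual axonal partner, had 5457 and 6511 scaled read equivalents in mutants 38 and 39, against 5126 and 5487 in wild-types 11 and 73, and mutant 38 lay within the wild-types. Kcna4, an A-type axonal subunit, had 1386 and 1565 scaled read equivalents in mutants 38 and 39, against 1388 and 1469.6 in wild-types 11 and 73 (log2 fold change 0.04 ± 0.11 SE), with mutant 39 highest. Kcna5, better known from heart muscle, had 80.1 and 89.3 scaled read equivalents in mutants 38 and 39, against 76.6 and 62.4 in wild-types 11 and 73 (log2 fold change 0.29 ± 0.24 SE), both mutants higher. Kcna5 shares windows with Kcna6, for which both mutants were also higher. How reads in those windows were counted was not given in the sources used here. The 10 microglia markers had a median log2 fold change of 0.04, beside -0.46 ± 0.15 for Kcna3, with summed levels of 6879 and 6979.7 in mutants 38 and 39, against 6812 and 6557 in wild-types 11 and 73.

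**Figure D3:**
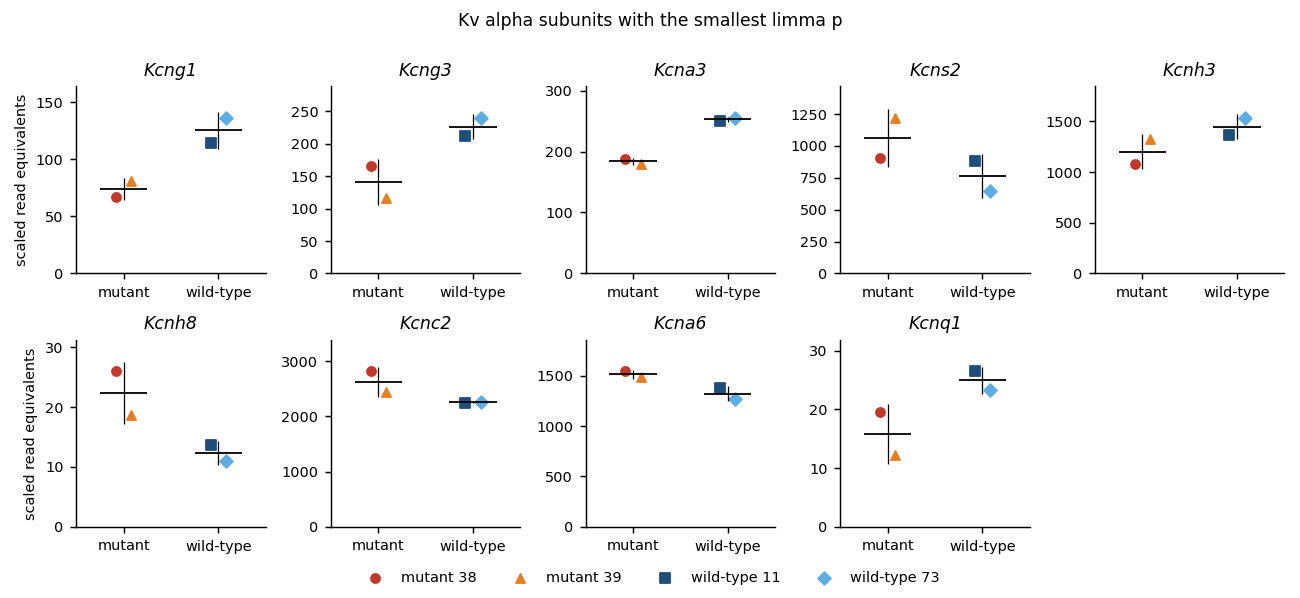
Scaled read equivalents in each library for 9 of the Kv alpha subunits with the smallest limma p, each panel with its own axis from 0, mutants left and wild-types right; lines are the mean and the SD (n = 2). Kcna3 shows tight pairs (188 and 179.9 in mutants, 249.7 and 255 in wild-types), while the pairs of Kcns2 nearly meet at 901 and 883.

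Of the Shaw-type members, Kcnc2 had 2823 and 2436 scaled read equivalents in mutants 38 and 39, against 2251 and 2264 in wild-types 11 and 73. Both mutants were higher, mutant 38 most, with a log2 fold change of 0.22 ± 0.11 (SE, n = 2 per group; limma unadjusted p = 0.084, adjusted p = 0.989). Kcnc1, which is found with Kcnc2 in fast-spiking inhibitory neurons, had 1715 and 1804 scaled read equivalents in mutants 38 and 39, against 1675 and 1711 in wild-types 11 and 73, both mutants higher by a small margin (log2 fold change 0.05 ± 0.09 SE). Kcnc4 had 530.3 and 793 scaled read equivalents in mutants 38 and 39, against 648 and 753 in wild-types 11 and 73, with mutant 38 lowest (log2 fold change -0.11 ± 0.20 SE). Beside these, the 14 interneuron markers had a median log2 fold change of 0.06, and their summed level was 18338 and 20176 in the mutants, against 17559 and 20035 in wild-types 11 and 73. The 11 thalamus markers summed to 7192 in mutant 38, the highest library for Kcnc2. They summed to 3383 in mutant 39 and to 3358 and 3179.6 in wild-types 11 and 73. Whether either list bears on Kcnc2 was not tested.

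The Shal-type Kcnd2 had 2718 and 3028 scaled read equivalents in mutants 38 and 39, against 2741 and 2590.0 in wild-types 11 and 73. The groups overlapped, with a log2 fold change of 0.11 ± 0.10 (SE, n = 2 per group; limma unadjusted p = 0.332, adjusted p = 0.989) and a 95% interval of -0.14 to 0.35. Kcnd3, which is found in inhibitory neurons and pyramidal cells, had 2206 and 1928 scaled read equivalents in mutants 38 and 39, against 2026 and 2214 in wild-types 11 and 73 (log2 fold change -0.04 ± 0.11 SE). Kcnd1 was at a low level, with 56.3 and 70.5 scaled read equivalents in mutants 38 and 39, against 53.4 and 77.0 in wild-types 11 and 73 (log2 fold change -0.02 ± 0.29 SE). Mutants and wild-types overlapped for both.

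In the Kcnq subfamily, the M-current subunit Kcnq3 had 1406 and 1636 scaled read equivalents in mutants 38 and 39, against 1637 and 1508 in wild-types 11 and 73, with mutant 39 level with wild-type 11. Mutant over wild-type gave -0.05 ± 0.11 on the log2 scale (SE, n = 2 per group), with mutant 38 lowest. Kcnq5, which also carries M-current, had 1576 and 1777 scaled read equivalents in mutants 38 and 39, against 1626 and 2141 in wild-types 11 and 73 (log2 fold change -0.16 ± 0.15 SE), with wild-type 73 highest. Kcnq1, a channel of heart and secretory epithelium, had 19.5 and 12.3 scaled read equivalents in mutants 38 and 39, against 26.5 and 23.3 in wild-types 11 and 73, both mutants lower, from at most 31.8 read equivalents before scaling in a library (log2 fold change -0.65 ± 0.39 SE, unadjusted p = 0.139, limma).

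In the EAG family, Kcnh3, a forebrain channel open below the firing threshold, had 1082 and 1321 scaled read equivalents in mutants 38 and 39, against 1360.2 and 1536 in wild-types 11 and 73. Both mutants were lower, mutant 39 by little below wild-type 11, with a log2 fold change of -0.27 ± 0.13 (SE, n = 2 per group; limma unadjusted p = 0.0748, adjusted p = 0.989). Kcnh8, its relative of low level, had 26.0 and 18.6 scaled read equivalents in mutants 38 and 39, against 13.7 and 10.9 in wild-types 11 and 73. Both mutants were higher, with a log2 fold change of 0.80 ± 0.39 (SE, n = 2 per group; limma unadjusted p = 0.0829, adjusted p = 0.989), with 30.8 read equivalents before scaling in mutant 38 and 7.0 in wild-type 73. Kcnh2, the ERG channel of the cardiac action potential, had 406 and 259 scaled read equivalents in mutants 38 and 39, against 287 and 295 in wild-types 11 and 73, and mutant 38 alone was high. Kcnh7, an ERG channel of neurons, had 763 and 1146 scaled read equivalents in mutants 38 and 39, against 1006 and 879 in wild-types 11 and 73, where mutant 38 was the lowest library and mutant 39 the highest. Kcnh1, the founding EAG channel of mammals, had 1114 and 1028 scaled read equivalents in mutants 38 and 39, against 1109 and 984 in wild-types 11 and 73 (log2 fold change 0.04 ± 0.11 SE). Kcnh5, its nearest relative, had 394 and 352 scaled read equivalents in mutants 38 and 39, against 382 and 289 in wild-types 11 and 73 (log2 fold change 0.17 ± 0.17 SE). Groups overlapped for both, and for Kcnh4 and Kcnh6, which had 23.5 to 51.5 in any library and log2 fold changes of -0.22 ± 0.31 and -0.12 ± 0.34 (SE).

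The members' count at an unadjusted p below 0.05 changed with the library left out, as did the number of all genes past adjustment. Such a fit has 1 library in 1 group, so its counts are not read as a result about the members. Kcna3, Kcng1, Kcng3 and Kcns2 kept their direction with any 1 library left out, which was fixed because their groups did not overlap. Their log2 fold changes then ran from -0.49 to -0.42, -0.89 to -0.62, -0.96 to -0.44 and 0.25 to 0.71, in that order. Within the mutants, 25 of 37 members were lower in mutant 38 than in mutant 39 (67.6%, against 49.7% of all genes), with a median log2 difference of -0.17. Without mutant 38 the members' median log2 fold change was 0.09, and without mutant 39 it was -0.16. Beside this, the 9 CA1 markers had a median log2 difference of -0.56 between mutants 38 and 39. Between wild-types 11 and 73 the members' median difference was -0.04, and 24 of 37 were lower in wild-type 11 (of all genes 8846 of 18127). Mutant 38 was also below mutant 39 for 14 of 18 tested auxiliary and partner genes and 11 of 16 other voltage-gated channels. For other potassium channels it was 20 of 35.

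Mutant 38 and wild-type 11 were both high in choroid plexus markers, and mutant 39 and wild-type 73 both low. Kcng1 had a log2 difference of -0.76 in the high pair and -0.75 in the low pair, Kcng3 one of -0.35 and -1.05, and Kcna3 one of -0.41 and -0.50. For these 3, both mutants lay below both wild-types, so any such pair had to give a negative sign. Kcns1 had -0.80 in the high pair and 0.33 in the low pair, Kcnh2 had 0.50 and -0.19, and Kcnh7 had -0.40 and 0.38, each with opposite signs. With 1 library on each side, these differences have no test.

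**Figure D4:**
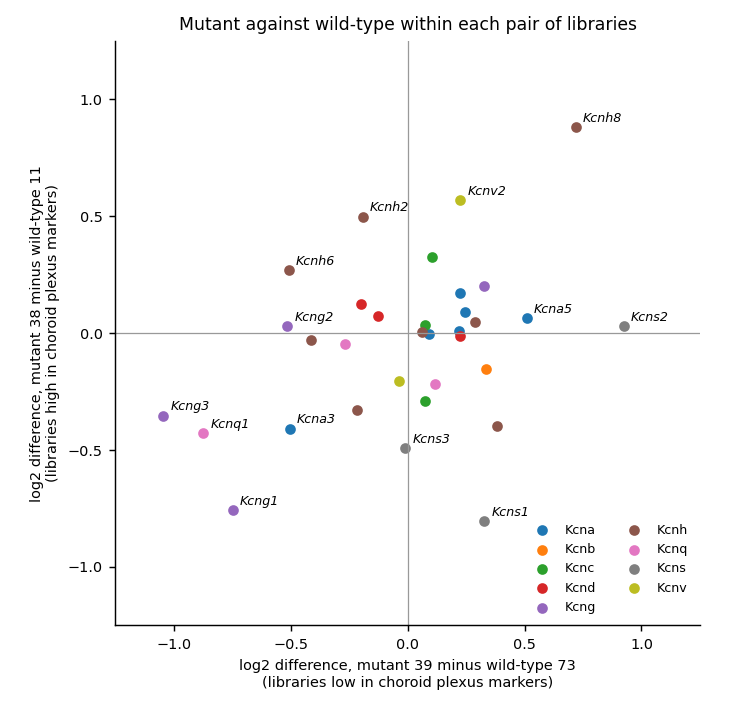
Log2 difference of 33 tested Kv alpha subunits between mutant 39 and wild-type 73 (x axis) and between mutant 38 and wild-type 11 (y axis), coloured by subfamily, with names where either exceeds 0.45 in size. Kcng1, Kcng3, Kcna3 and Kcnq1 lie below 0 on both axes, Kcnh8 above 0 on both, and Kcns2 at 0.92 on the x axis and 0.03 on the y axis.

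The authors' deposited table gives 1 p-value per record, for which 544 of 31315 records (1.74%) were below 0.05. In the authors' deposited table, 4 of the 57 member records were below 0.05: Kcng3 (p = 0.0207), Kcng1 (p = 0.0377) and both records of Kcns2 (p = 0.0244 and p = 0.0205). Kcna3 had p = 0.0635 in the authors' deposited table. After Benjamini-Hochberg adjustment over all records, done here, 0 of the 57 records passed, where 61 records passed in all (0.195%).

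Auxiliary subunits and partners set the gating, traffic and placement of Kv channels: Kcnab proteins bind Shaker-type subunits, Kcnip and Dpp proteins bind Shal-type subunits, Kcne proteins bind Kcnq and other subunits, and Cntn2, Cntnap2, Adam22 and Lgi1 place or anchor axonal channels. Of 19 in the table, 18 were tested (Kcne1 was listed at 0 in every library), and 0 passed at an adjusted p below 0.05. At an unadjusted p below 0.05, 1 was higher (of all genes 2.18%) and 0 were lower (of all genes 1.75%). Their median log2 fold change was 0.19, against 0.01 over all genes, and 16 of 18 were above 0, as were 9305 of 18127 genes. Both mutants were higher for 7 (of all genes 16.8%) and lower for 1 (of all genes 16.5%).

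Kcne4, which damps Kv currents, had 44.6 and 39.6 scaled read equivalents in mutants 38 and 39, against 20.9 and 12.5 in wild-types 11 and 73. Both mutants were higher, with a log2 fold change of 1.33 ± 0.37 (SE, n = 2 per group; limma unadjusted p = 0.00915, adjusted p = 0.989). These are low levels, and wild-type 73, where Kcne4 was lowest, was the shallowest library. Kcnab3, a beta subunit, had 389.7 and 556 scaled read equivalents in mutants 38 and 39, against 349 and 341 in wild-types 11 and 73 (log2 fold change 0.43 ± 0.18 SE). Cntn2, made by myelinating cells as well as neurons, had 3333 and 3393 scaled read equivalents in mutants 38 and 39, against 3109 and 2509 in wild-types 11 and 73 (log2 fold change 0.27 ± 0.12 SE), both mutants higher, as were 11 of the 12 oligodendrocyte markers. Adam22, a receptor for Lgi1, had a log2 fold change of 0.19 ± 0.10 (SE). Kcne2, which is abundant in choroid plexus, is itself in the choroid plexus marker list. It had 438 and 14.4 scaled read equivalents in mutants 38 and 39, against 350.4 and 14.1 in wild-types 11 and 73, and so differed within each group.

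Of 38 other potassium channel genes, 35 were tested and 0 passed at an adjusted p below 0.05. At an unadjusted p below 0.05, 4 were higher (of all genes 2.18%) and 1 lower (of all genes 1.75%), and the median log2 fold change was 0.04. Kcnf1, a silent partner of Kcnb subunits like Kcng and Kcns, had 1125 and 1072 scaled read equivalents in mutants 38 and 39, against 1469 and 1305 in wild-types 11 and 73. Both mutants were lower, with a log2 fold change of -0.33 ± 0.11 (SE, n = 2 per group; limma unadjusted p = 0.0172, adjusted p = 0.989). The 4 higher ones were Kcnk6, a background channel, at 0.76 ± 0.23, Kcnj8, a pericyte channel, at 0.68 ± 0.25, Kcnj10, the inward rectifier of astrocytes and oligodendrocytes, at 0.44 ± 0.17, and Kcnk1, which the naming rule did not take and which was chosen after its values were seen, at 0.27 ± 0.11 (SE, n = 2 per group). Kcnj10 and Kcnj8 stand in the astrocyte and the vessel marker lists, whose medians were 0.10 and 0.18. The 12 markers of myelinating oligodendrocytes had a median of 0.44, beside 0.44 for Kcnj10. The part of any of these cell types in the fold changes was not tested.

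Among 16 other voltage-gated channels, 0 passed at an adjusted p below 0.05, 1 was higher (of all genes 2.18%) and 0 were lower (of all genes 1.75%) at an unadjusted p below 0.05, and the median log2 fold change was -0.03. The sodium channel gene Scn1a, known for inhibitory neurons, had 3506 and 4031 scaled read equivalents in mutants 38 and 39, against 3103 and 3165 in wild-types 11 and 73, both mutants higher (log2 fold change 0.26 ± 0.11 SE, unadjusted p = 0.0425, limma). The calcium channel genes Cacna1g, Cacna1c and Cacna1i had 0.25 ± 0.13, -0.23 ± 0.13 and -0.26 ± 0.15 (SE, n = 2 per group).

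**Figure D5:**
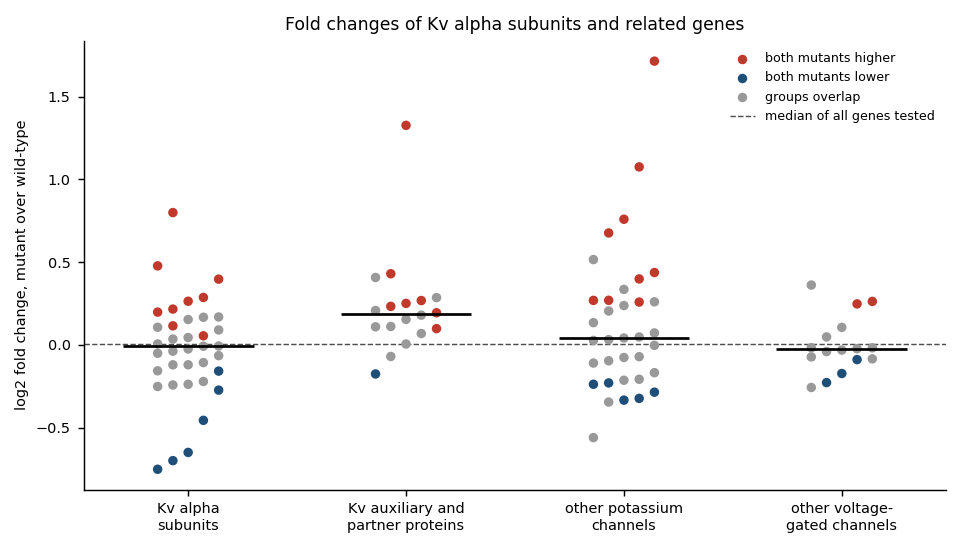
Log2 fold change, mutant over wild-type, of each tested gene in 4 lists (1 point per gene, coloured by whether both mutants lie beyond both wild-types), with each list's median as a bar and the median of all genes dashed. The auxiliary list has a median of 0.19, against -0.01 for the alpha subunits, 0.04 for other potassium channels and -0.03 for other voltage-gated channels.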

How the data were processed

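RNA of 4 hippocampus libraries was sequenced, per the labels' protocols, after removal of ribosomal RNA, with strand marking by dUTP. The submitters' processing notes name GSNAP, DESeq2 and the build mm9, with no versions. The counting tool, strand setting and annotation were not given in the sources used here. The authors deposited signal, aligned bases per transcript record divided by 1 scaling factor per library: 100% of values were whole multiples of 1 step per library, within 0.05 of a step, and the most frequent low value was 42 steps. They are neither read counts nor per length, and a read shared by records can be in each. The authors also deposited a p-value per record, with no word in the header on adjustment.

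Values were divided by 42. Genes with at least 1 scaled read equivalent in 2 libraries were tested with limma 3.58.1 (R 4.3.3) on log2(value + 1), with a variance trend, group as the only term, two-sided, with Benjamini-Hochberg adjustment at 0.05 over all genes. Simulated data with known fold changes were used to test it. Lengths and sequences came from GENCODE M21 (GRCm38) for all 39 members; levels per kb assume the authors' record had that length. Tables and plots used Python 3.11.15, pandas 2.3.3 and matplotlib 3.10.9. The signal of each record is the depth behind its value, and intervals cover the spread between libraries only. The members and lists were chosen with earlier results of these data known. Genes given with all values were the 10 members with the smallest p, the highest member of each subfamily per length, every member with an unadjusted p below 0.05 and the 4 smallest p of each related list; other members are named as members of the set, and some members are not reported here. Alternatives changed the pseudocount, filter, unit, scaling, variance prior, record, covariate and libraries, and used the authors' p-values.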

Additional observations from a re-analysis of the deposited data

How the results depend on the processing

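The number of genes past an adjusted p of 0.05 was 1, and became 0 with a variance prior without a trend, 12 with a robust prior, 113 with a choroid plexus covariate (1 residual degree of freedom), 45 with the authors' deposited p-values adjusted here, and 1 to 37 with 1 library left out. It was 1 under the other 8 alternatives. Under all 16 alternatives that give a count, 0 Kv alpha subunits passed, and the smallest adjusted p of any of them was 0.114 (Kcng3). The number of members at an unadjusted p below 0.05 was 4, was between 3 and 5 with all 4 libraries, and changed with the library left out. The members' median log2 fold change of -0.0081 was -0.16 to 0.091 with 1 library left out, -0.012 between mutant 38 and wild-type 11 and 0.076 between mutant 39 and wild-type 73.

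Of the 13 members tracked across alternatives, 10 kept their direction under every alternative, Kcna3 between -0.50 and -0.41, Kcng1 between -0.89 and -0.62, Kcng3 between -1.05 and -0.35 and Kcns2 between 0.03 and 0.92. The groups of these 10 did not overlap, so leaving out 1 library or taking 1 pair could not change their sign. The other 3 had small fold changes that changed sign: Kcnv1 with 1 left out (-0.30 to 0.054), and Kcnd2 (-0.012) and Kcng2 (0.031) between mutant 38 and wild-type 11. The cause was not tested. The authors' p-values give no median. No paired analysis was possible because the groups share no replicate number. Wild-type 73, the shallowest library, limits members such as Kcnh8 and Kcnq1, with 7.0 and 14.9 read equivalents there.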
